A study of Arabidopsis thaliana with 18 samples.

Results

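The P-type cyclins of Arabidopsis are a family of 7 genes, and each of them was looked up by its locus identifier in a table of read counts for 32832 genes. They are CYCP1;1 (AT3G63120), CYCP2;1 (AT3G21870), CYCP3;1 (AT2G45080), CYCP3;2 (AT3G60550), CYCP4;1 (AT2G44740), CYCP4;2 (AT5G61650) and CYCP4;3 (AT5G07450). All 7 were present in the table. The question asked of the data was whether these genes responded to sugar in seedlings, and whether the atm1-1 mutant differed from Col-0 in this. CYCP4;2 was higher in atm1-1 seedlings on sucrose than in atm1-1 seedlings without sugar, and over all sugar treatments CYCP4;2 was higher and CYCP4;1 lower than without sugar. Each of these calls was lost when certain single libraries were left out. No P-type cyclin passed the test in a comparison of atm1-1 with Col-0.

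P-type cyclins resemble PHO80, the cyclin through which budding yeast relays its phosphate status to gene expression. Like other cyclins they act by binding a cyclin-dependent kinase (CDK), and in Arabidopsis CDKA;1 is a partner described for them. CYCP2;1 is known as a target of the homeodomain transcription factor STIMPY (WOX9) that is needed for cells of the root meristem to enter mitosis when sugar is supplied, and CYCP4;2 has been reported to stand in partly for PHO80 in yeast.

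RNA was taken from whole seedlings, 5 days old, of the mutant atm1-1 and of the wild type Col-0, an Arabidopsis accession in common laboratory use. Both genotypes were grown on agar plates of Murashige and Skoog medium in a light and dark cycle, with 15 mM sucrose, with 15 mM glucose or with no sugar (mock). atm1-1 is a single T-DNA insertion allele (SAIL_405_B08) of ATM1 (AT3G19960), which encodes a class VIII myosin, and it was the allele in all mutant libraries. Each of the 6 groups had 3 libraries, described as biological replicates. In the QuantSeq libraries that were made, reads start near the 3′ end of each polyadenylated RNA. Levels of different genes were not compared with each other, as this depends on the 3′ end of each gene. Because the RNA came from whole seedlings, fewer cells expressing a gene and less of its RNA per cell cannot be told apart. The libraries held 9450790 to 20256309 counts. ATM1 had 311 to 623 counts per library. Averaged over the treatments, its log2 fold change of atm1-1 over Col-0 was −0.08 (SE 0.11, edgeR q = 0.86). These 3′ counts therefore did not separate the genotypes and could not check the labels. In the study, RT-PCR found no full-length ATM1 transcript in atm1-1, but did find transcript upstream of the insertion. The source of the ATM1 reads in atm1-1 was not tested. The glucose replicate 2 of atm1-1 stood somewhat apart from the rest, with a TMM factor of 0.857 against 0.927 to 1.13 in the other libraries. Over the genes tested, the SD of its log2 CPM from the mean of its group's other replicates was 0.885. This SD was 0.727 for atm1-1 glucose replicate 1 and 0.393 to 0.582 for all remaining libraries.

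Levels are given in CPM, the counts of a gene relative to the counts of its whole library, after TMM normalization, which also corrects for the composition of each library. Of the 7 genes, 6 passed the filter on low counts. They were tested among 19679 genes with the quasi-likelihood method of edgeR. The q-value is the Benjamini-Hochberg adjusted p-value over all those genes, and a gene was called changed at q ≤ 0.1. Fold changes are in log2 units, each with a standard error (SE). CYCP4;3 did not pass the filter. It had 0 to 16 counts per library, with 0 in 3 of the 18 libraries, and is described by its values alone.

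The members differed widely in how many reads they received. CYCP1;1 had 103 to 268 counts per library and CYCP4;1 had 42 to 170, whereas CYCP2;1 had 0 to 40, CYCP3;1 had 1 to 30, CYCP3;2 had 5 to 37 and CYCP4;2 had 0 to 78. The members with fewer reads had a larger spread between replicates. The biological coefficient of variation that edgeR estimated was 19.9% for CYCP1;1 and 20.6% for CYCP4;1, against 41.2% for CYCP4;2, 41.3% for CYCP2;1, 44.5% for CYCP3;2 and 48.5% for CYCP3;1. For the last 4 genes, a change had to be larger to be told from the replicate error.

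**Figure D1:**
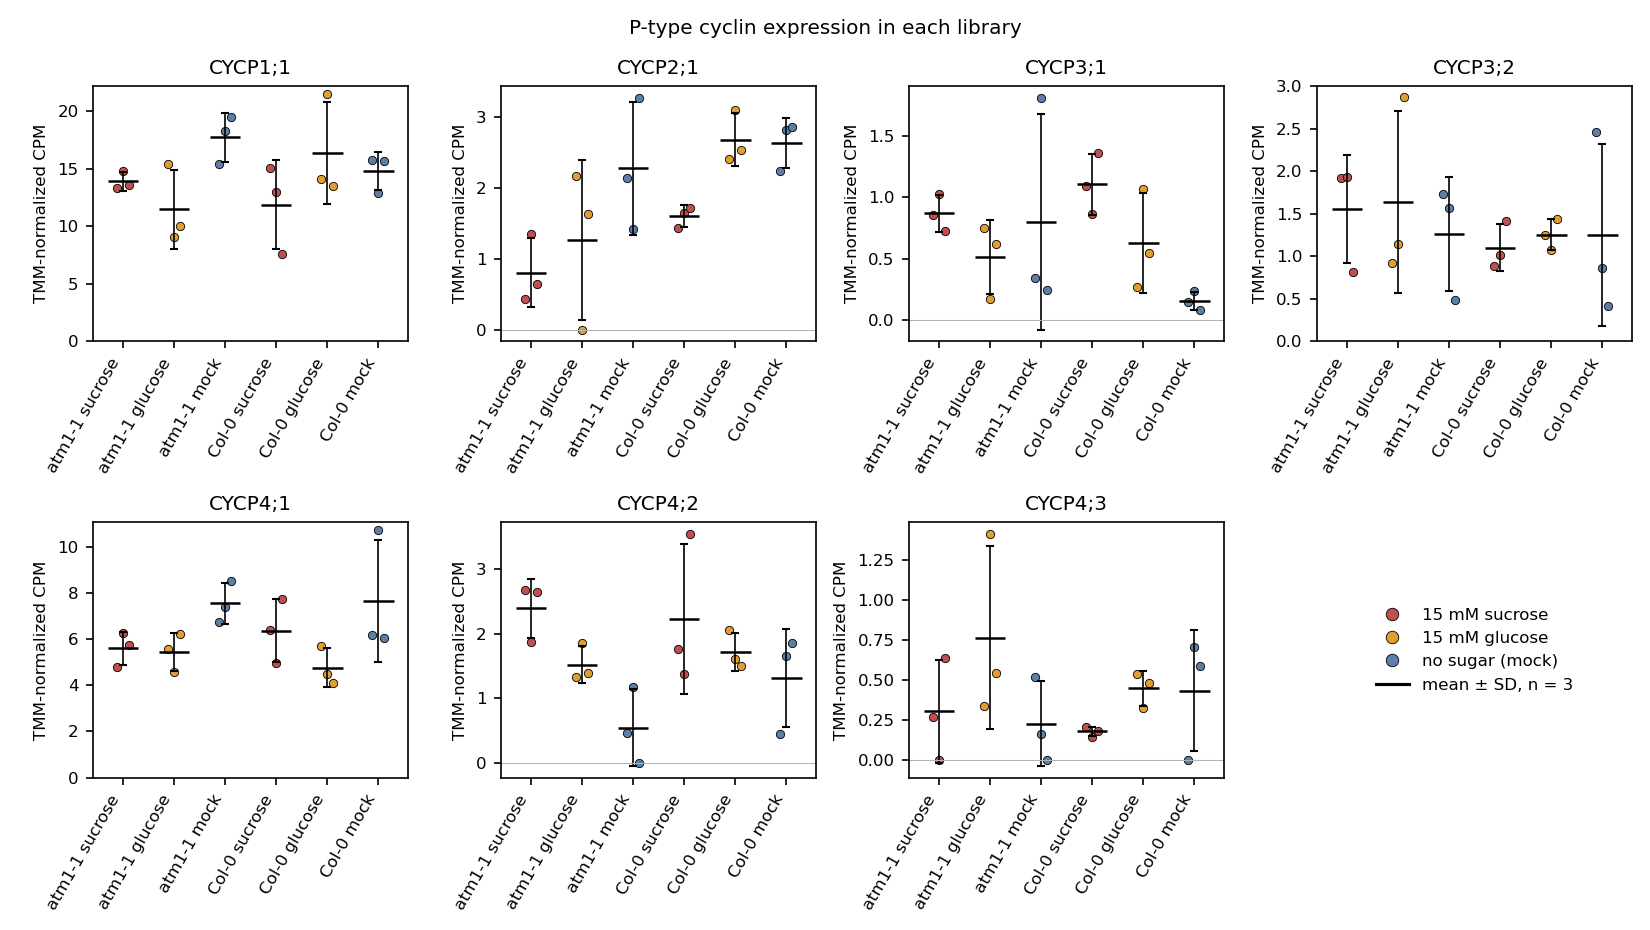
TMM-normalized CPM (vertical axes, 1 scale per gene) of the 7 P-type cyclins in every library. Points are libraries and bars the mean ± SD of 3 libraries. The CYCP4;2 panel shows the 3 atm1-1 sucrose libraries, at 1.87 to 2.67 CPM, above the 3 atm1-1 mock libraries, at 0 to 1.18 CPM.

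The transcripts were also compared for features that could lead to shared reads. Coding sequences were 58.2% to 83.8% identical between pairs of members, with CYCP3;1 and CYCP3;2 the closest pair and CYCP4;2 and CYCP4;3 next, at 77.1%. Even so, no stretch of 50 bases, the read length, occurred in the transcripts of more than 1 member. Of the 7 members, 6 overlap no other locus in the RefSeq annotation of TAIR10.1. The exception is CYCP4;2, described with its values.

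In atm1-1, 1 of the 6 P-type cyclins tested was called changed by sucrose, against 5.23% of all genes tested. This was CYCP4;2. Its level was 2.67, 1.87 and 2.64 CPM in the atm1-1 sucrose libraries, against 0.461, 1.18 and 0 CPM in the atm1-1 mock libraries. All 3 sucrose libraries lay above all 3 mock libraries, and mock replicate 3 had no read of the gene. The log2 fold change was 2.11 (SE 0.65, edgeR q = 0.0775). The 3 sucrose libraries together held 108 counts and the 3 mock libraries 23. After scaling by TMM-corrected library size the ratio was 4.39, with a 95% interval of 2.78 to 7.21 that covers counting error only. DESeq2 and limma also called the gene, at adjusted p = 0.0143 and 0.0204. The call depended on single libraries. Without atm1-1 sucrose replicate 1, 2 or 3 the q-value was 0.24, 0.101 or 0.176, without atm1-1 mock replicate 1 or 3 it was 0.216 or 0.251, and the fold changes then lay between 1.57 and 2.26. Without mock replicate 2 the fold change was 3.17 (q = 0.0295).

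The other sugar comparisons of CYCP4;2 gave the following values, in which those of 1 genotype share their mock libraries. On glucose, the atm1-1 libraries had 1.33, 1.85 and 1.39 CPM, against the same 0 to 1.18 CPM in mock, again without overlap. The log2 fold change was 1.46 (SE 0.67, q = 0.326) and was not called. It was 2.52 without atm1-1 mock replicate 2 and 0.92 without atm1-1 mock replicate 3. In Col-0, the sucrose libraries had 1.77, 1.37 and 3.54 CPM, against 0.446, 1.65 and 1.85 CPM in mock. These groups overlapped, as 1 library of each lay apart from its group (sucrose replicate 3 high, mock replicate 1 low), and the fold change was 0.78 (SE 0.60, q = 0.616). It was 0.27 without that sucrose library and 0.37 without that mock library. The Col-0 glucose libraries had 2.05, 1.61 and 1.5 CPM and overlapped the mock libraries, with a fold change of 0.39 (SE 0.62, q = 0.992). The group means ran from 2.39 ± 0.455 CPM in atm1-1 on sucrose to 0.547 ± 0.595 CPM in atm1-1 mock (SD, n = 3 each), and every group overlapped its neighbour in that order.

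A comparison of all sugar libraries with all mock libraries, in which both genotypes weigh equally, called 2 of the 6 members, against 11.7% of all genes tested. CYCP4;2 was higher with sugar (log2 fold change 1.19, SE 0.40, q = 0.0706) and CYCP4;1 was lower (−0.46, SE 0.16, q = 0.0734). DESeq2 called both of them. limma called CYCP4;2 (adjusted p = 0.0153) and not CYCP4;1 (0.207). For CYCP4;2, all 6 atm1-1 sugar libraries lay above the highest atm1-1 mock library, and 2 of the 6 Col-0 sugar libraries lay above the highest Col-0 mock library. The CYCP4;2 call was lost without atm1-1 sucrose replicate 1 (q = 0.109), atm1-1 mock replicate 1 (0.145) or 3 (0.154), Col-0 sucrose replicate 3 (0.13), Col-0 glucose replicate 1 (0.106) or Col-0 mock replicate 1 (0.194).

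**Figure D2:**
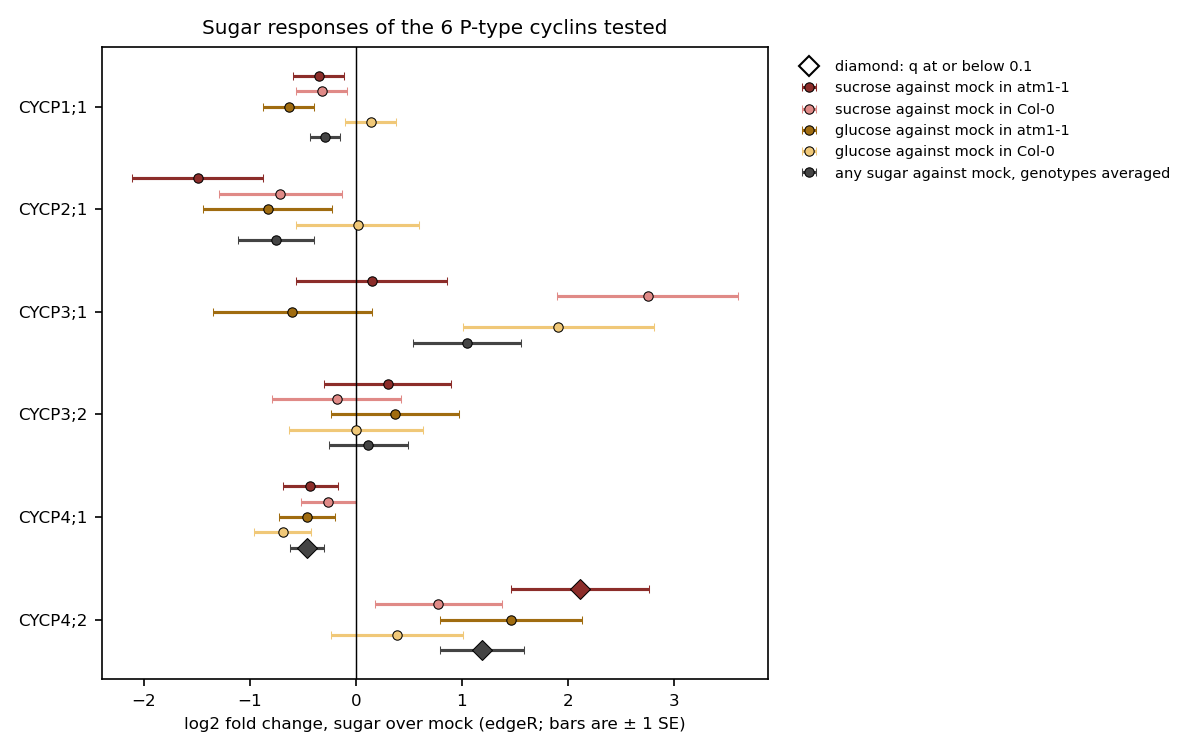
Log2 fold changes with sugar over mock (horizontal axis, edgeR, bars ± 1 SE) for the 6 P-type cyclins tested, in 5 comparisons per gene. Diamonds mark q ≤ 0.1. They are CYCP4;2 with sucrose in atm1-1 (2.11), and CYCP4;2 (1.19) and CYCP4;1 (−0.46) over all sugar treatments.

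The 3′ part of the CYCP4;2 locus is overlapped by another gene. In the RefSeq annotation of TAIR10.1, AT5G61660, a gene for a glycine-rich protein on the opposite strand, lies entirely within CYCP4;2. It covers 1221 of the 1704 exonic bases of CYCP4;2 (71.7%) and 926 of the 970 bases of its 3′ untranslated region, and CYCP4;2 ends 44 bases beyond the start of its neighbour. The library kit keeps the strand of the RNA, but whether the counting used it is not given in the sources used here. The counts of the pair were therefore set side by side. AT5G61660 had 379 to 913 counts per library, many more than CYCP4;2. Its level was 34.6, 58.8 and 55.8 CPM in atm1-1 on sucrose and 32.6, 46.1 and 32.3 CPM in atm1-1 mock, which overlapped (log2 fold change 0.42, SE 0.20, q = 0.314). CYCP4;2 made up 7.16%, 3.08% and 4.52% of the counts of the pair in the atm1-1 sucrose libraries and 1.4%, 2.5% and 0% in the atm1-1 mock libraries. The 2 sets of shares did not overlap. In Col-0 the shares were 2.86% to 9.79% on sucrose and 1.32% to 5.25% in mock, and they overlapped. Over all sugar treatments the log2 fold change of AT5G61660 was 0.33 (SE 0.12, q = 0.108), against 1.19 for CYCP4;2. AT5G61660 was called there by DESeq2 (adjusted p = 0.0787) and limma (0.0226). The part of reads from AT5G61660 in the CYCP4;2 counts was not tested.

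**Figure D3:**
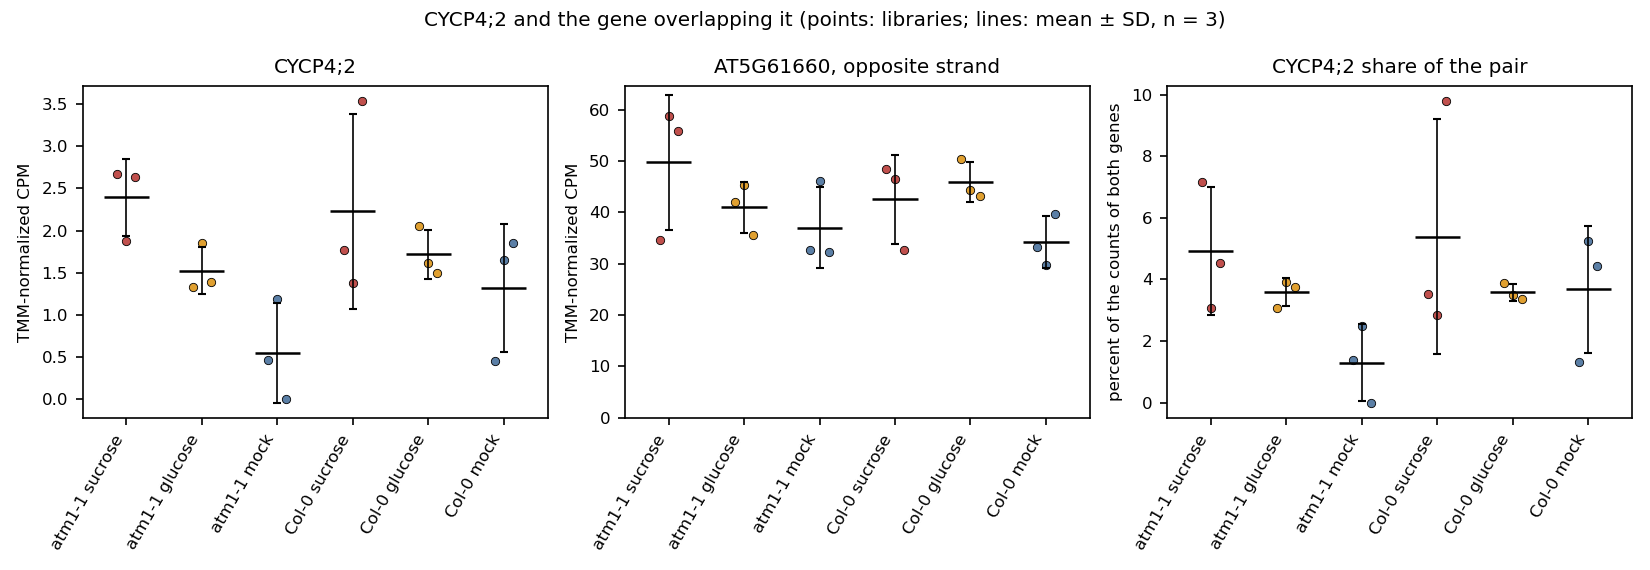
TMM-normalized CPM of CYCP4;2 (left) and of AT5G61660 on the opposite strand (middle), and CYCP4;2 as a percent of the counts of both genes (right). Points are libraries and bars the mean ± SD of 3. The share was 3.08% to 7.16% in atm1-1 on sucrose and 0% to 2.5% in atm1-1 mock.

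CYCP4;1 had lower values with sugar in both genotypes, and by a smaller factor. In atm1-1 its level was 4.81, 6.24 and 5.73 CPM on sucrose and 5.58, 4.57 and 6.2 CPM on glucose, against 6.74, 7.4 and 8.5 CPM in mock. All 6 sugar libraries lay below the lowest mock library. The fold changes were −0.43 with sucrose (SE 0.26, q = 0.473) and −0.46 with glucose (SE 0.26, q = 0.447). In Col-0 the level was 6.41, 4.96 and 7.71 CPM on sucrose and 5.69, 4.5 and 4.1 CPM on glucose, against 6.18, 10.7 and 6.04 CPM in mock. The glucose libraries lay below all Col-0 mock libraries, whereas the sucrose libraries overlapped them. The fold change with glucose was −0.69 (SE 0.27, q = 0.622), and with sucrose it was −0.26 (SE 0.26, q = 0.715) and turned to 0.07 without Col-0 mock replicate 2, the library at 10.7 CPM. None of these 4 comparisons was called. Only their average passed the test, and it no longer did without Col-0 mock replicate 2 (−0.29, q = 0.302), atm1-1 mock replicate 2 or 3 (q = 0.119 and 0.185), atm1-1 sucrose replicate 1 (0.125), Col-0 sucrose replicate 2 (0.133) or Col-0 glucose replicate 3 (0.122). Scaling by library size alone also ended the call (−0.37, q = 0.172).

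**Figure D4:**
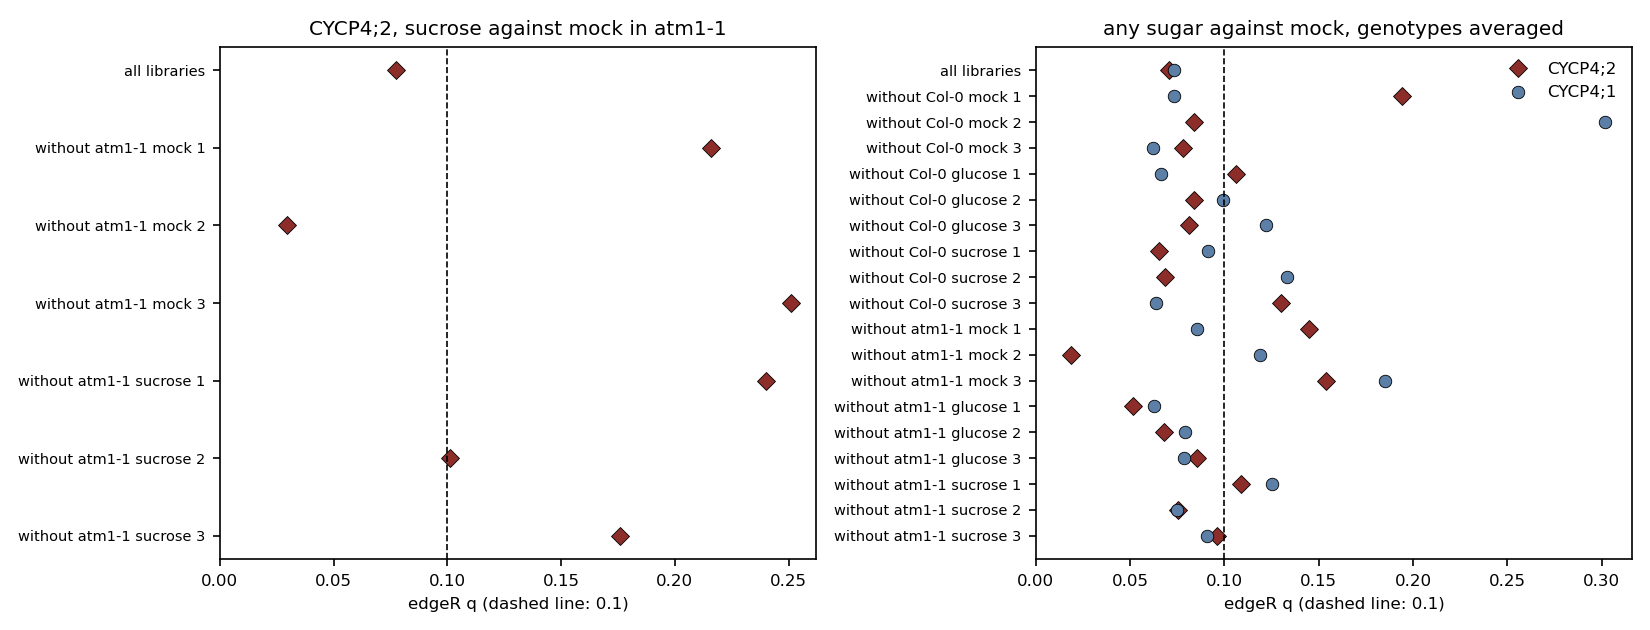
edgeR q-values (horizontal axes) with each library left out in turn, for CYCP4;2 with sucrose in atm1-1 (left) and for CYCP4;2 and CYCP4;1 over all sugar treatments (right). The dashed line is q = 0.1, and with all libraries the 3 values are 0.0775, 0.0706 and 0.0734.

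In Col-0, no P-type cyclin was called with sucrose, against 2.14% of all genes tested. An unadjusted p under 0.05 was found for 1 member, against 13.2% of all genes tested. This was CYCP3;1, which DESeq2 and limma called. Its level was 1.09, 0.863 and 1.36 CPM in Col-0 on sucrose, against 0.149, 0.235 and 0.0839 CPM in Col-0 mock. The groups did not overlap, but the mock libraries together held only 6 reads of the gene and the sucrose libraries 58. The log2 fold change was 2.75 (SE 0.85, edgeR q = 0.119, DESeq2 adjusted p = 0.0606, limma adjusted p = 0.0845). The ratio of the summed counts, scaled by TMM-corrected library size, was 7.27, with a 95% counting interval of 3.15 to 20.6. On glucose the Col-0 libraries had 0.267, 1.07 and 0.547 CPM, all above mock as well, with a fold change of 1.91 (SE 0.90, q = 0.808).

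In atm1-1 the CYCP3;1 values did not follow this pattern. The level was 0.854, 1.03 and 0.728 CPM on sucrose and 0.749, 0.176 and 0.62 CPM on glucose, against 0.346, 1.81 and 0.245 CPM in mock. Mock replicate 2 had the highest value of the 18 libraries, and both sugar groups overlapped the mock group. The fold changes were 0.15 with sucrose (SE 0.71, q = 0.954) and −0.60 with glucose (SE 0.75, q = 0.771). Without mock replicate 2 they were 1.52 and 0.77. The difference between the genotypes in the sucrose response was −2.61 (SE 1.11, unadjusted p = 0.0273, edgeR q = 1). In the glucose response it was −2.51 (SE 1.17, unadjusted p = 0.0426, q = 1). Neither was called, and without atm1-1 mock replicate 2 they were −1.24 and −1.14. Over all sugar treatments the fold change of CYCP3;1 was 1.05 (SE 0.51, q = 0.235), and without that library it was 1.74 and was called (q = 0.0542).

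CYCP3;2, the closest relative of CYCP3;1, gave no such contrast. Its level was 1.92, 1.93 and 0.819 CPM on sucrose, 0.916, 1.14 and 2.87 CPM on glucose and 1.73, 1.57 and 0.49 CPM in mock in atm1-1. In Col-0 it was 0.886, 1.01 and 1.41 CPM on sucrose, 1.25, 1.07 and 1.44 CPM on glucose and 2.46, 0.863 and 0.42 CPM in mock. The sugar groups overlapped the mock group in both genotypes. Over all sugar treatments the log2 fold change was 0.12, with a 95% interval of −0.65 to 0.89 (edgeR q = 0.892), so changes of up to these sizes could not be told from none.

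CYCP2;1, the member tied to sugar-dependent mitosis in the root meristem, was not called higher with sugar in any comparison of these seedlings. In atm1-1 it was at 0.427, 1.35 and 0.637 CPM on sucrose and 2.16, 0 and 1.63 CPM on glucose, against 2.13, 1.42 and 3.27 CPM in mock. All 3 sucrose libraries lay below all 3 mock libraries. The log2 fold change with sucrose was −1.49 (SE 0.62, unadjusted p = 0.0252, edgeR q = 0.242). In Col-0 it was at 1.43, 1.65 and 1.72 CPM on sucrose and 2.4, 3.1 and 2.53 CPM on glucose, against 2.23, 2.82 and 2.85 CPM in mock. Here too the sucrose libraries lay below the mock libraries, with a fold change of −0.71 (SE 0.58, q = 0.646), while the glucose libraries overlapped them at 0.02 (SE 0.58, q = 1). Over all sugar treatments the change was −0.75, with a 95% interval of −1.48 to −0.02 (edgeR q = 0.22). It was not called, except without atm1-1 glucose replicate 1 (−0.90, q = 0.0956). With glucose in atm1-1 the fold change was −0.83 (SE 0.61, q = 0.573), and it was −0.26 without replicate 2, the library with no read of the gene.

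CYCP1;1, the member with the most reads, was at 13.3, 14.8 and 13.6 CPM on sucrose and 15.4, 9.06 and 9.99 CPM on glucose in atm1-1, against 15.4, 18.3 and 19.5 CPM in atm1-1 mock. All 6 sugar libraries lay below the lowest mock library, but glucose replicate 1 and mock replicate 1 were equal when rounded (15.4 CPM). In Col-0 it was at 15.1, 13 and 7.57 CPM on sucrose and 14.1, 21.5 and 13.5 CPM on glucose, against 15.8, 12.9 and 15.7 CPM in Col-0 mock, and the groups overlapped. With glucose, the log2 fold change was −0.63 in atm1-1 (SE 0.24, unadjusted p = 0.0151, edgeR q = 0.224) and 0.14 in Col-0 (SE 0.24, q = 0.993). The difference between these responses was −0.77 (SE 0.34, unadjusted p = 0.0326, q = 1) and was not called. Without atm1-1 glucose replicate 1 the fold change in atm1-1 was −0.90 and was called (q = 0.0391). With sucrose the fold changes were −0.35 in atm1-1 (SE 0.24, q = 0.536) and −0.32 in Col-0 (SE 0.24, q = 0.604).

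With glucose, no member was called in either genotype, against 2.92% of all genes tested in atm1-1 and 0.554% in Col-0. Without atm1-1 glucose replicate 1 the share in atm1-1 was 10.5%, and 1 member, CYCP1;1, was called. Unadjusted p-values under 0.05 were found for CYCP1;1 and CYCP4;2 in atm1-1 (13.7% of all genes tested) and for CYCP3;1 and CYCP4;1 in Col-0 (6.07%). With all libraries neither DESeq2 nor limma called any of these members. The 6 members did not share a direction in any sugar comparison. Their median log2 fold change with sucrose was −0.10 in atm1-1 and −0.22 in Col-0, with 3 of 6 and 2 of 6 above 0, where the medians of all genes were −0.0036 and 0.0101. With glucose the medians were −0.53 in atm1-1 and 0.08 in Col-0, with 2 of 6 and 5 of 6 above 0, where the medians of all genes were −0.0104 and −0.0030.

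CYCP4;3 was at or near the detection limit in every group. The summed counts of 3 libraries were 12 on sucrose, 27 on glucose and 11 in mock in atm1-1, and 9 on sucrose, 16 on glucose and 16 in mock in Col-0. Its highest value, 1.41 CPM from 16 reads, was in atm1-1 glucose replicate 2, the library that stood apart in composition and had no read of CYCP2;1. Group means ran from 0.761 ± 0.569 CPM in atm1-1 on glucose to 0.177 ± 0.0306 CPM in Col-0 on sucrose (SD, n = 3 each), and neighbouring groups overlapped.

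The genotypes were compared within each treatment. No member was called in mock (0.158% of all genes tested were), on glucose (0.0508%) or on sucrose (0.0457%), by edgeR, DESeq2 or limma. Unadjusted p-values under 0.05 were found for 1 member in mock (5.51% of all genes tested), 1 on glucose (6.48%) and none on sucrose (4.62%). In mock this was CYCP3;1, at 0.346, 1.81 and 0.245 CPM in atm1-1 against 0.149, 0.235 and 0.0839 CPM in Col-0. The groups did not overlap and the log2 fold change was 2.27 (SE 0.87, unadjusted p = 0.0153, q = 0.791), but without atm1-1 mock replicate 2 it was 0.90. On glucose it was CYCP1;1, whose groups overlapped (−0.50, SE 0.24, unadjusted p = 0.0482, q = 0.761). The log2 fold change of CYCP4;2 in mock was −1.24 (SE 0.67, q = 0.959), with overlapping groups, and it was −2.30 without atm1-1 mock replicate 2 and −0.70 without atm1-1 mock replicate 3.

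Averaged over the treatments, no member was called between atm1-1 and Col-0, against 0.884% of all genes tested, and neither DESeq2 nor limma called one. CYCP2;1 had the lowest p-value of the members there, with a log2 fold change of −0.76 (SE 0.35, unadjusted p = 0.04, edgeR q = 0.439). Its atm1-1 libraries lay below all Col-0 libraries on sucrose (−0.99, SE 0.63, q = 0.999) and on glucose (−1.06, SE 0.61, q = 0.783), and overlapped them in mock (−0.22, SE 0.58, q = 1). The glucose value was −0.49 without atm1-1 glucose replicate 2, the library with no read of CYCP2;1, and −1.66 without atm1-1 glucose replicate 1. For CYCP1;1 and CYCP4;1, the members with the smallest replicate error, the averaged differences were 0.00 (95% interval −0.29 to 0.28) and −0.01 (−0.32 to 0.31).

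Sucrose was also compared with glucose, and the sugar responses of atm1-1 with those of Col-0. By edgeR, sucrose against glucose called 0% of the genes tested in atm1-1 and 0% in Col-0, where 4.76% and 6.51% had an unadjusted p under 0.05. The differences between the genotypes in the sucrose and in the glucose response called 0% each, where 2.84% and 3.81% had an unadjusted p under 0.05. DESeq2 called 0.0203% to 0.0457% of the genes in these 4 comparisons and limma none. Among the members, no unadjusted p-value was under 0.05 for sucrose against glucose, and 1 and 2 were for the differences in the sucrose and the glucose response. DESeq2 and limma called no member in these comparisons. For CYCP4;2 the difference between the genotypes in the sucrose response was 1.33 (95% interval −0.49 to 3.14, q = 1). Its call with sucrose in atm1-1 and not in Col-0 was therefore not a difference shown between the genotypes. Sucrose libraries of atm1-1 lay above all atm1-1 glucose libraries for CYCP4;2, with a fold change of 0.65 (SE 0.60, q = 0.981). The margin was narrow, as the lowest sucrose library was at 1.87 CPM (29 counts) and the highest glucose library at 1.85 CPM (21 counts).

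Genes that act beside the P-type cyclins were counted in the same way. Of 14 CDK genes and B-type cyclin genes of mitosis, 13 were tested, and over all sugar treatments 3 rose and none fell, with a median log2 fold change of 0.27 against −0.0026 for all genes and 11.7% of all genes called. The B-type cyclin CYCB2;3 was higher by 0.91 (SE 0.25, q = 0.0231), CYCB2;4 by 0.66 (SE 0.23, q = 0.0842) and the mitotic kinase gene CDKB2;1 by 0.36 (SE 0.13, q = 0.0984). CDKA;1, a kinase described as a partner of P-type cyclins, was at 0.11 (SE 0.10, q = 0.582). By edgeR none of the 13 was called with a single sugar in a single genotype. DESeq2 and limma each called 1 with sucrose in Col-0, as did edgeR under library size scaling, without a filter on low counts, with only the groups compared or without Col-0 sucrose replicate 1, and with sucrose in atm1-1 limma called 1, as did edgeR without atm1-1 mock replicate 2. The calls of CYCB2;4 and CDKB2;1 were each lost when any 1 of 12 libraries was left out, whereas CYCB2;3 was called with each of the 18 left out.

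Of 15 genes tied to the phosphate response, the pathway PHO80 serves in yeast, 13 were tested. Over all sugar treatments 2 rose and none fell, where 11.7% of all genes were called, with a median of 0.08 against −0.0026 for all genes. They were IPS1, a noncoding RNA induced by phosphate starvation (2.63, SE 0.63, q = 0.00854), and PHT1;4, a phosphate transporter gene (0.83, SE 0.23, q = 0.0227). IPS1 was also called with sucrose in atm1-1 (2.74, SE 0.87, q = 0.09) and in Col-0 (3.72, SE 1.01, q = 0.0691). With 1 of the 6 libraries compared left out, the call was lost in 5 of 6 cases in atm1-1 and in 4 of 6 in Col-0.

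Of 12 genes of sugar and energy signalling, 11 were tested and 3 were lower over all sugar treatments, with none higher, where 11.7% of all genes were called. The median of the 11 was −0.25, against −0.0026 for all genes. BCAT2, a gene of branched-chain amino acid breakdown that is repressed by sugar, had a log2 fold change of −1.05 (SE 0.16, q = 9.93e-05), DIN10 of −0.58 (SE 0.10, q = 0.000361) and DIN1 of −0.32 (SE 0.12, q = 0.0894). DIN1 and DIN10 are genes induced in the dark and by sugar starvation. The DIN1 call was lost with any 1 of 11 of the 18 libraries left out. With sucrose in atm1-1, BCAT2 (−1.36, SE 0.28, q = 0.00497), DIN10 (−1.01, SE 0.17, q = 0.000628) and KIN11 (−0.57, SE 0.17, q = 0.0785), a catalytic subunit gene of the energy-sensing kinase SnRK1, were called lower. With glucose in atm1-1, BCAT2 (−1.01, q = 0.0569) and DIN10 (−0.70, q = 0.0226) were, and with sucrose in Col-0 BCAT2 was (−1.03, q = 0.064). With 1 of the 6 libraries compared left out, the KIN11 call was lost in 6 of 6 cases and the BCAT2 call with sucrose in Col-0 in 4 of 6. With glucose in atm1-1 the BCAT2 call was lost in 3 of 6 cases and the DIN10 call in 2 of 6. STIMPY did not pass the filter on low counts.

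Markers of root and shoot were read in the same libraries, as the seedlings hold both. The summed level of 10 root markers was 162 to 226 CPM in atm1-1 on sucrose, 186 to 243 on glucose and 160 to 192 in mock, and 186 to 227, 104 to 210 and 151 to 206 CPM in the same order in Col-0. None of the 7 root markers tested was called with sugar. The summed level of 8 shoot markers, most of it from genes of photosynthesis, was 28400 to 37700 CPM on sucrose, 32300 to 53700 on glucose and 36900 to 45200 in mock in atm1-1. In Col-0 it was 33800 to 37100 CPM on sucrose, 33000 to 39400 on glucose and 37200 to 40100 in mock. Some defining markers had no read in a whole group, namely WOX5 of the root quiescent center in atm1-1 on glucose, PLT2 of the root meristem in atm1-1 mock and Col-0 on glucose, and CLV3 of the shoot meristem in Col-0 on glucose. One shoot marker, RBCS1A, was lower with sucrose in atm1-1 (−0.47, SE 0.13, q = 0.0513) and over all sugar treatments (−0.28, SE 0.08, q = 0.0319). Its part in the CYCP4;2 and CYCP4;1 values was not tested.

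Across the 18 libraries the members varied largely apart from each other. Pearson's r of log2 CPM over the 15 pairs of tested members ran from −0.51 for CYCP1;1 with CYCP4;2 to 0.49 for CYCP1;1 with CYCP2;1, and it was 0.28 for the closely related CYCP3;1 and CYCP3;2. These values describe libraries that share their treatments, and no test was made of them. The genes outside the family whose levels followed each member most closely, among those whose log2 CPM averaged 1 or more, are the closest of 16035 or 16036 genes compared. For CYCP1;1 the first was DIT2.1, a dicarboxylate transporter gene of the chloroplast (r = 0.95), and for CYCP2;1 it was AT1G25400 (0.92). For CYCP4;2 the first were AT4G36640 (0.91) and RIPK (0.88), a receptor-like cytoplasmic kinase gene, and for CYCP4;1 it was AT5G37360 (0.81). CYCP3;1 was followed most closely by EXP3, an expansin gene (0.81), and CYCP3;2 by RPT3, for a subunit of the proteasome, and MYB3R-3, for a MYB factor of the cell cycle (0.71 each).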

How the data were processed

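QuantSeq FWD 3′ libraries of 50 bp reads were made from 18 seedling RNA samples. Reads were aligned to TAIR10 by the authors, who deposited the unnormalized counts of each gene in each library. The submitters' processing notes name STAR, HTSeq and edgeR without versions, and the annotation release and the use of strand in counting are not given in the sources used here. A second deposited table holds signal values, the same counts brought to 1 library size (13481521). Its name refers to TMM, but for 75 genes with high counts it equalled plain scaling to within ratios of 0.99992 to 1.0001.

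The members and gene lists were chosen with earlier results of these data known. The tools were DESeq2 1.42.0, limma 3.58.1 and edgeR 4.0.16 in R 4.3.3. After filterByExpr and TMM normalization of the counts, 1 glmQLFit model held the 6 groups, with 13 comparisons and Benjamini-Hochberg adjustment over the 19679 genes tested within each. The study's tool, PoissonSeq, was not run, and its threshold of 0.1 was kept. For limma, the scaled values plus a pseudocount of 1 were put on the log2 scale. Alternatives were RLE or library size scaling, other filters on low counts, DESeq2, limma, a threshold of 0.05, the replicate number as a block, a fit of only the groups compared, and each library left out in turn. Scripts were tested on simulated data.

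Calls of members were counted in every comparison, but values were not given for every member in each. Of the gene lists, only genes at q ≤ 0.1 were named, apart from CDKA;1, STIMPY and the markers WOX5, PLT2 and CLV3. For likeness, genes with the highest r were named. Gene structures came from the RefSeq annotation of TAIR10.1, matched by locus identifier (7 of 7 members), without coordinates, because the files are in TAIR10. Promoter motifs were not analysed here. No molecular identifiers were described, so counting intervals (95%) cover counting error only. Depth was 9450790 to 20256309 counts per library.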

Additional observations from a re-analysis of the deposited data

How the results depend on the processing

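The count of P-type cyclins called with sucrose in atm1-1 was 1 (5.23% of all genes called). It fell to 0 with at least 10 counts required in every library (5.67%), a filter that removes CYCP4;2 by construction. At a threshold of 0.05 it was also 0 (3.04%). With sucrose in Col-0 the count was 0, with 2.14% of all genes called. It became 1 (CYCP3;1) under library size scaling (2.78%), without a filter (3.51%), with DESeq2 (3.96%), with limma (2.51%) and with only the groups compared (2.36%). Over all sugar treatments the count was 2 (11.7%). It became 1 under library size scaling (12.6%), without a filter (10.5%) and with limma (12.9%), CYCP4;2 in each. With the 10-count filter it was 1 (CYCP4;1, 13.7%), and at a threshold of 0.05 it was 0 (8.02%). Library size scaling moved the median fold change of all genes to 0.14 with sucrose in atm1-1, 0.15 with sucrose in Col-0 and 0.08 over all sugar treatments, so that CYCP4;1 over all sugar treatments, at −0.37, lay below a raised median, and no member turned sign under it. The cause was not tested where the setting does not itself give it. With single libraries left out, the count was 0 to 1 with sucrose in atm1-1, 0 to 1 with glucose in atm1-1 and 0 to 4 over all sugar treatments. It was 0 there without atm1-1 sucrose replicate 1 (9.64% of all genes called) or mock replicate 3 (8.13%). It was 4 without atm1-1 glucose replicate 1 (17.1%), namely CYCP1;1, CYCP2;1, CYCP4;1 and CYCP4;2. In the other comparisons it stayed at 0 under every setting run. Of the fold changes that turned sign, none had been called. CYCP3;2 with sucrose in Col-0 was −0.18, and 0.25 with limma, and CYCP1;1 between the genotypes, treatments averaged, was 0.00 under RLE, the replicate block and DESeq2. With libraries left out, CYCP3;2 ran from −0.58 to 0.77 with sucrose in Col-0 and from −0.08 to 0.60 over all sugar treatments, CYCP3;1 in atm1-1 from −0.27 to 1.52 with sucrose and from −1.01 to 0.77 with glucose, CYCP4;1 with sucrose in Col-0 from −0.42 to 0.07, and with glucose in Col-0 CYCP4;2 from −0.03 to 0.71, CYCP1;1 from −0.10 to 0.26 and CYCP2;1 from −0.10 to 0.09. Between the genotypes, CYCP2;1 in mock ran from −0.56 to 0.03, and with treatments averaged CYCP1;1 from −0.09 to 0.08 and CYCP4;1 from −0.05 to 0.10. Groups share replicate numbers, so deviations from the group mean were correlated between libraries of different groups. Of 45 pairs with the same number, 3 were above 0.1 (−0.15 to 0.27), against 7 of 90 with other numbers (−0.33 to 0.26). The numbers were therefore not taken as pairs. With the replicate number as a block, 1 member was called with sucrose in atm1-1 (CYCP4;2, q = 0.0996) and 2 over all sugar treatments, as without it, and the block changed no other call of a member. The percent of all genes called moved as well, between 3.04 and 9.64 with sucrose in atm1-1 across settings. With libraries left out it lay between 1.85 and 3.81 with sucrose in atm1-1 (5.23 with all), 0.501 and 3.55 with sucrose in Col-0 (2.14), 1.48 and 10.5 with glucose in atm1-1 (2.92), 0.26 and 0.476 with glucose in Col-0 (0.554), and 7.26 and 17.1 over all sugar treatments (11.7). Members with few reads, above all CYCP3;1 and CYCP4;3, are limited by depth.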
